A study of Mus musculus with 16 samples.

Results

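Type I interferon-stimulated genes are the antiviral genes that cells switch on when interferon alpha or beta binds its receptor. Here 51 such genes were followed by their symbols through RNA sequencing of mouse macrophages, out of 54532 gene identifiers in the count tables. Each of the 51 symbols matched 1 identifier, and each passed the filter on low counts in every comparison. Bone marrow cells became macrophages over 7 days in M-CSF (20 ng/mL), which drives that lineage. They then spent 24 h in plain culture or in 70% tumor-conditioned medium (TCM) from YUMM1.7, a mouse melanoma line.

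The 16 libraries fell into 5 groups. TRAP1 knockout cells in TCM (TRAP1 KO TCM, n = 4) were set against wild-type cells in TCM (WT TCM, n = 3), and these against wild-type cells without TCM (WT naive, n = 3). TRAP1 is the HSP90-type chaperone of mitochondria. Conditional knockout cells of the JMJD3 line in TCM (JMJD3 cKO TCM, n = 3) were set against the wild type of that line in TCM (JMJD3 WT TCM, n = 3), so both groups of this line carried the medium. Kdm6b encodes JMJD3, a demethylase of histone H3 at lysine 27. Not given in the sources used are mouse strain and age, the Trap1 knockout allele, and the exons and Cre driver of the conditional allele. Nothing in the labels ties a replicate to its own animal or culture, and p-values therefore reflect only the variation among these libraries, possibly technical.

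Interferon alpha and beta signal through the receptor chains IFNAR1 and IFNAR2 and the kinases JAK1 and TYK2. These kinases lead to the assembly of the transcription factor complex ISGF3, which holds STAT2 and IRF9. ISGF3 binds the interferon-stimulated response element (ISRE) in the promoters of its target genes. Macrophages without infection are known to keep a low level of interferon beta signalling that holds such genes at a basal level.

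Depth per library was 15.4 to 22.4 M counts. Trap1 was at 0 to 0.0535 CPM (the counts-per-million unit, on scaled library totals) in TRAP1 KO TCM, against 61.4 to 71.5 CPM in WT TCM. Kdm6b was at 24.4 to 26.3 CPM in JMJD3 cKO TCM, against 23.3 to 26.7 CPM in JMJD3 WT TCM. Gene-level counts cannot show whether some of its exons were deleted. The macrophage markers Adgre1 and Csf1r averaged at least 1173 CPM in every group. Siglech and Klk1, defining markers of plasmacytoid dendritic cells, the main interferon-producing cells, averaged at most 0.201 CPM. The summed level of their 7-gene list, which holds genes of other cells too, ran from 97.4 to 139 CPM over all libraries. It ran from 97.4 to 100.2 CPM in WT naive, 104 to 108 CPM in WT TCM and 114 to 123 CPM in TRAP1 KO TCM. In the JMJD3 line it ran from 112 to 119 CPM in JMJD3 cKO TCM and 130.3 to 139 CPM in JMJD3 WT TCM. Tcf4 made up most of it, with group means of 93.5 to 128 CPM, and Cox6a2 averaged at most 5.16 CPM. Xist, the RNA that silences an X chromosome in female cells, averaged 918 CPM in JMJD3 cKO TCM and 844 CPM in JMJD3 WT TCM, and at most 0.0143 CPM in the other 3 groups. Line, sex and set therefore cannot be told apart, and each knockout was tested within its own set only.

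The ISRE was looked for in the promoters of the members. The stretches below were taken from the RefSeq promoter table (build GRCm38.p6) for members on which the results turn, written 5′ to 3′ along the gene's own strand, with each ISRE core in capitals. The core searched was GAAANNGAAA, or TTTCNNTTTC on the other strand, within 250 bases upstream of a RefSeq start, and overlapping cores were joined. The first 4 sequences belong to the genes with the deepest changes or to their neighbours, the fifth to the ISG15 modifier, and the others to members whose knockout effects differed. Only members that held the core are printed. Cmpk2, Ifit2, Isg20, Znfx1 and Xaf1, also described below for their changes, were searched and held none.

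Rsad2, chr12:26456528-26456607, minus strand: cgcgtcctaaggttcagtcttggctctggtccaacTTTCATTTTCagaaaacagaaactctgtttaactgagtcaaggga
Ifit1bl1, chr19:34602028-34602107, minus strand: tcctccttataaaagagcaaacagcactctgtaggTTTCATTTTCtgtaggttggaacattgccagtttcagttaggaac
Ifit3, chr19:34583338-34583451, plus strand: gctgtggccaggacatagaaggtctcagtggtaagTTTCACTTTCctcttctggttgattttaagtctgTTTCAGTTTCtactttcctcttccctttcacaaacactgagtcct
Ifit1, chr19:34640750-34640848, plus strand: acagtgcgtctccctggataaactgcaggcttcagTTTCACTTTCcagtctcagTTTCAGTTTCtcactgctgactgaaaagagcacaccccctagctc
Isg15, chr4:156200840-156200931, minus strand: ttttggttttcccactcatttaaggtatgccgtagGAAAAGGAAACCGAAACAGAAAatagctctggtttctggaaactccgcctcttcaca
Bst2, chr8:71537552-71537637, minus strand: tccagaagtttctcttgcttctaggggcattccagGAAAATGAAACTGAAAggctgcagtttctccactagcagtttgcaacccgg
Slfn8, chr11:83020814-83020893, minus strand: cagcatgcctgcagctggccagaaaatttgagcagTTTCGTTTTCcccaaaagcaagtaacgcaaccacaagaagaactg

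The sequence printed for Ifit3 was identical over its 114 bases to the one upstream of Ifit3b, at chr19:34607734-34607847. Of the 51 members, 38 were matched in the table, and 15 of these (39.5%) held the ISRE core, against 3.46% of all 27025 genes in it. The longer core GAAANNGAAACT (AGTTTCNNTTTC on the other strand) was held by 9 members (23.7%) and by 0.255% of all genes. The core of the gamma-activated site, TTCNNNGAA, which reads the same on both strands, was held by 5 members (13.2%) and by 8.13% of all genes. A match describes these letters in this window and is not a measured binding site.

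As a sum, levels of the members were higher in the JMJD3 line than in the TRAP1 set. Ly6e went the other way between the knockouts, at 2364 to 2474 CPM in TRAP1 KO TCM against 2262 to 2314 CPM in JMJD3 cKO TCM. Summed over the 51 genes, TRAP1 KO TCM libraries held 15483 to 15662 CPM, WT TCM libraries 16407 to 16640.4 CPM and WT naive libraries 19239 to 19268 CPM. JMJD3 cKO TCM libraries held 32409 to 33175 CPM and JMJD3 WT TCM libraries 47297 to 48936 CPM. None of the 5 groups overlapped with another in this sum. As a share of all counts the members took 1.62%, 1.70% and 2.00% in TRAP1 KO TCM, WT TCM and WT naive, and 3.20% and 4.42% in JMJD3 cKO TCM and JMJD3 WT TCM. Every JMJD3 cKO TCM library stood above every WT naive library for 51 of 51 members and for 28.8% of all 14545 genes tested across the 16 libraries. For 37 members the group means ran in 1 order, from TRAP1 KO TCM as the lowest through WT TCM, WT naive and JMJD3 cKO TCM to JMJD3 WT TCM as the highest, an order that 7.00% of those genes had.

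The ratio of JMJD3 WT TCM to WT TCM, both wild type in the same medium, ran from 1.52 for Ifitm3 to 96.9 for Ifit1bl1 with a median of 2.47. It was 17.9 for Rsad2, 15.8 for Cmpk2, 9.97 for Ifit2 and 9.43 for Isg20, the next-highest ratios after Ifit1bl1. Since line, sex and set cannot be told apart, these ratios are a description with no test. Replicates were tight, with a median coefficient of variation over the members of 1.64% to 2.31% in the 5 groups. Per kilobase of exon the most abundant member in WT TCM was Ifitm3 at 2053 CPM per kb, followed by Ifi27l2a at 1153 and Bst2 at 1069, and the least abundant were Ifit1bl1 at 6.06 and Herc6 at 5.90.

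**Figure D1:**
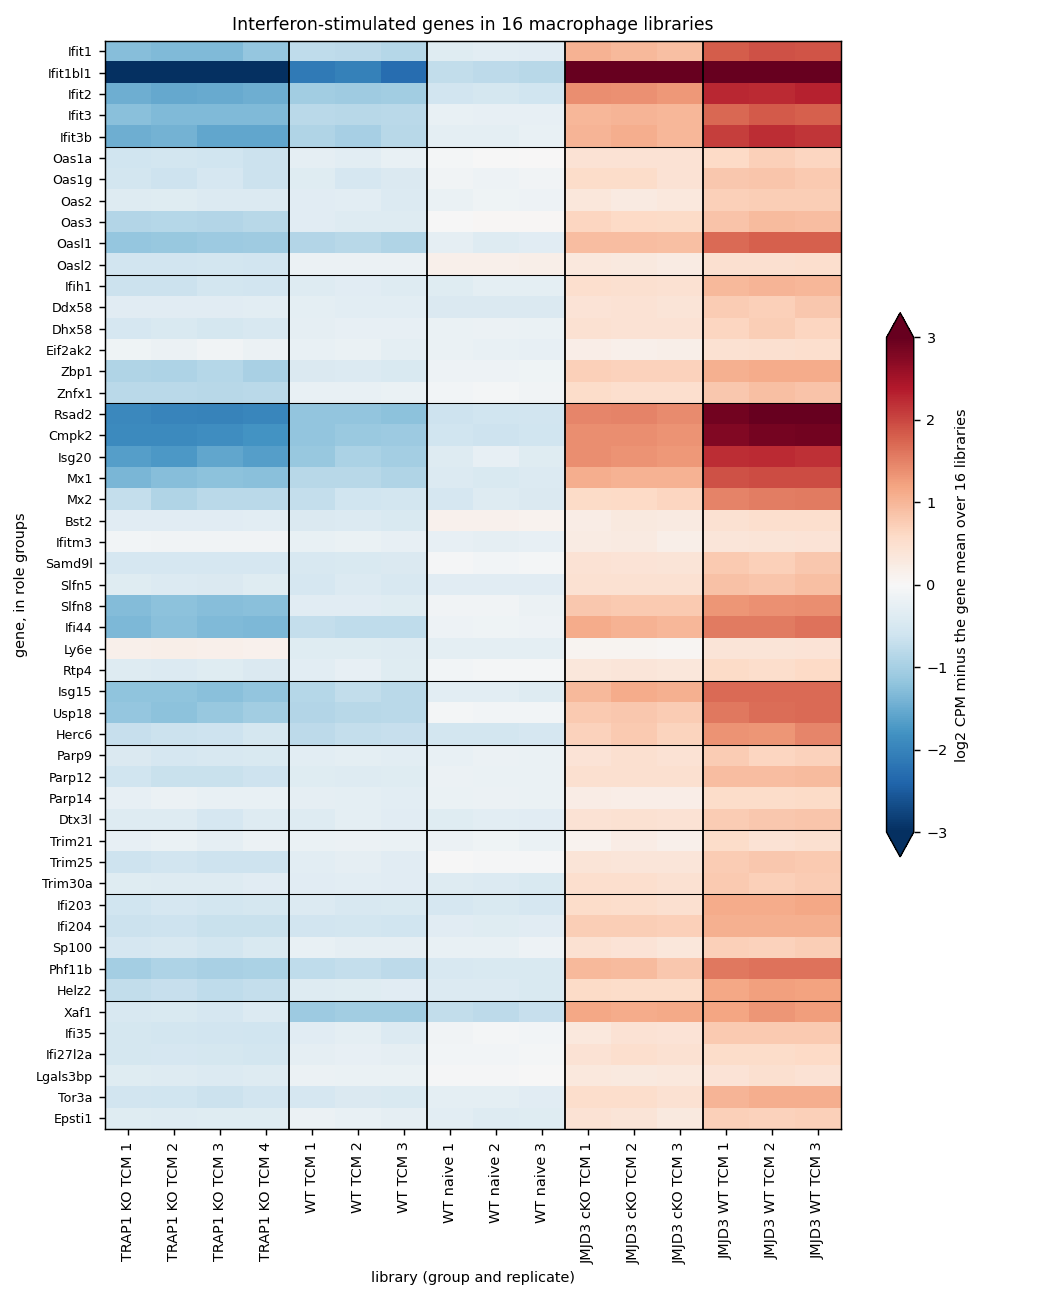
Log2 CPM of each of the 51 genes (rows, in role groups) minus its own mean over the 16 libraries (columns), on a color scale clipped at 3 in either direction. The 6 libraries of the JMJD3 line lie above the others in nearly every row, and Ifit1bl1 has the widest range.

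The first comparison asked what melanoma medium did to the interferon genes of wild-type macrophages. WT TCM had 40 of 51 members lower than WT naive, 5 higher and 6 not called, at an adjusted p under 0.05 (edgeR quasi-likelihood test, Benjamini-Hochberg adjustment over 14078 genes). Of all genes tested, 42.2% were called, 20.6% as lower and 21.6% as higher. A size threshold was added, with the higher level at least 25% above the lower one. It left 18 members lower and 0 higher, against 9.75% and 9.94% of all genes. The median log2 fold change of the members was -0.23, against -0.007 over all genes, and their summed CPM in WT TCM was 0.859 times that in WT naive.

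All 5 IFIT genes, whose products bind viral RNA or restrain translation, fell, with a median log2 fold change of -0.58. Ifit1bl1, an Ifit1-like gene of the cluster, had 13.9, 14.9 and 12.3 CPM in WT TCM libraries, against 36.5, 35.3 and 33.7 CPM in WT naive libraries. It thus lay lower in every treated library, with a log2 fold change of -1.36 (SE 0.08, adjusted p = 3.0e-29, edgeR). Ifit3b had 42.9, 40.6 and 44.9 CPM in WT TCM, against 65.8, 65.9 and 69.0 CPM in WT naive (-0.65, SE 0.05). Ifit2, the most abundant of the group by CPM, had 407, 399 and 408 CPM in WT TCM, against 569, 587 and 560.1 CPM in WT naive (-0.50, SE 0.02). The WT TCM and WT naive libraries overlapped for none of these genes. How many of all genes lacked such overlap was not counted for the medium comparison.

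The 2′-5′ oligoadenylate synthetase (OAS) family makes the messenger that activates RNase L, and all 6 members fell, by 0.20 to 0.54 on the log2 scale. Oas3, which had the highest CPM of the family, was at 651, 631 and 629.6 CPM in WT TCM, against 826, 842 and 844 CPM in WT naive (-0.39, SE 0.02). Usp18, the protease that removes ISG15 and blocks IFNAR2, was at 76.6, 79.3 and 81.1 CPM in WT TCM, against 135, 134 and 134 CPM in WT naive (-0.77, SE 0.04). The modifier Isg15 itself was at 136, 147 and 141 CPM in WT TCM, against 196, 197 and 189 CPM in WT naive (-0.46, SE 0.03). For these 3 genes as well, every library with TCM lay below every library without it.

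Of 13 direct antiviral effectors 12 fell and 1, Ifitm3, was called higher by a log2 fold change of 0.04. Isg20, an exonuclease that degrades RNA, had 26.6, 30.3 and 28.7 CPM in WT TCM, against 44.6, 48.6 and 45.1 CPM in WT naive (-0.70, SE 0.06). Ifitm3, which blocks virus entry in endosomes, had 1391, 1412 and 1373 CPM in WT TCM, against 1357, 1346 and 1367 CPM in WT naive, without overlap. That call was lost when WT naive replicate 1 or 2, or WT TCM replicate 1 or 2, was left out, with log2 fold changes of 0.03 to 0.04. Bst2 (tetherin), which holds budding virus at the cell surface, fell to 952 to 980.3 CPM in WT TCM, against 1410.0 to 1442 CPM in WT naive (-0.57, SE 0.02).

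Sensors of foreign nucleic acid moved little. Among 6 of them Zbp1 (-0.29) and Znfx1 (-0.14) fell, and Ddx58, the gene of the RNA sensor RIG-I, was higher at 262, 258 and 258 CPM in WT TCM, against 238, 238 and 237 CPM in WT naive (0.12, SE 0.02). The sensors Ifih1 (MDA5, -0.06) and Dhx58 (LGP2, -0.06) and the RNA-activated kinase gene Eif2ak2 (PKR, -0.02) were not called, at adjusted p of 0.11, 0.069 and 0.56 (edgeR). The other members called higher were Epsti1 at 144, 139.6 and 136 CPM in WT TCM, against 131, 124 and 127 CPM in WT naive, the ubiquitin ligase gene Trim30a (0.10) and the helicase gene Helz2 (0.06). Trim30a had 355, 361 and 357 CPM in WT TCM, against 340.3, 338 and 325 CPM in WT naive. Helz2 had 316, 318 and 327 CPM in WT TCM, against 309.9, 309 and 302 CPM in WT naive, and its call was lost without WT naive replicate 3 or WT TCM replicate 3 (0.05 each). None of the rises with TCM reached 25%.

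The medium comparison also moved markers of macrophages and of other cells. The 7 macrophage markers summed to 25511 to 25978 CPM in WT TCM, against 15584 to 15797 CPM in WT naive. Lyz2 made up most of this gap, at 17925 CPM in WT TCM against 7971 CPM in WT naive. Csf1r, Itgam and Mertk were higher in WT TCM as well, while Adgre1, Cd68 and Fcgr1 were lower. T and NK cell markers summed to 0 to 0.110 CPM in WT TCM, against 0.707 to 1.46 CPM in WT naive. The 8 neutrophil markers summed to 4.08 to 5.46 CPM in WT TCM, with Mpo and Ly6g at 0, against 50.0 to 54.1 CPM in WT naive. The 6 fibroblast markers summed to 0.165 to 0.403 CPM in WT TCM, with Col3a1, Dcn and Pdgfra at 0, against 13.3 to 14.4 CPM in WT naive. Their part in the lower interferon genes was not tested. In bulk RNA fewer cells of a type and less RNA per cell cannot be told apart.

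**Figure D2:**
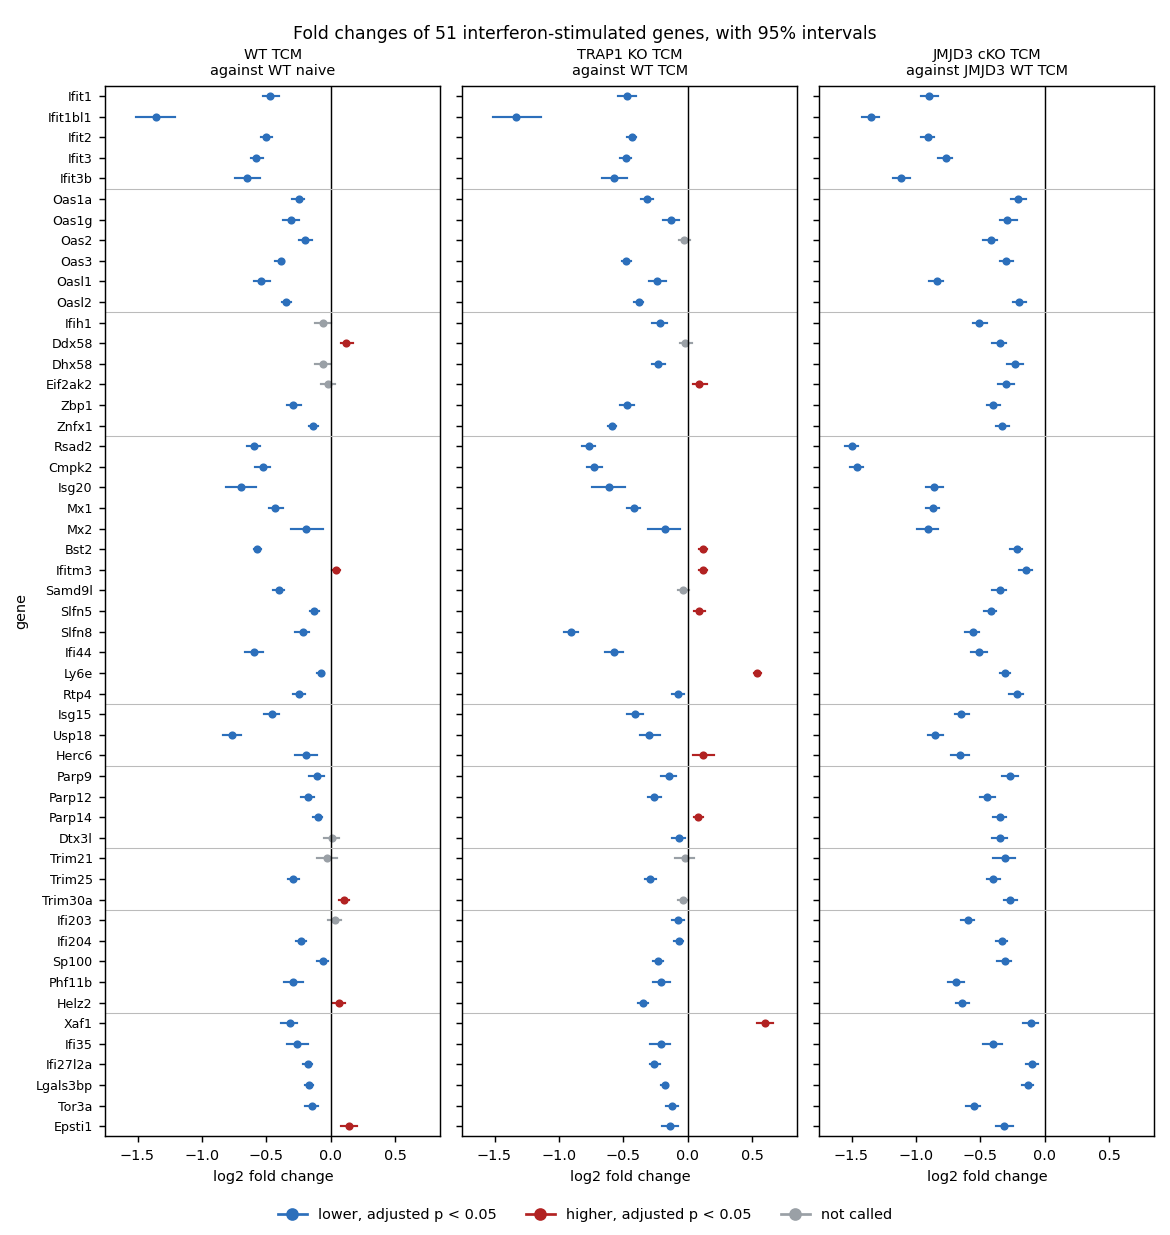
Log2 fold change with its 95% interval (horizontal axis) for each of the 51 genes (vertical axis, in role groups) in the 3 comparisons, blue for lower, red for higher and gray for not called at an adjusted p of 0.05. In the right-hand panel all 51 genes lie below 0, while the other panels hold 5 and 8 genes called higher.

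The second comparison asked what loss of the mitochondrial chaperone did to the same genes under TCM. TRAP1 KO TCM had 38 of 51 members lower than WT TCM, 8 higher and 5 not called, against 42.2% of all 14078 genes called, 21.0% as lower and 21.2% as higher. With the 25% threshold 17 members were lower and 2 higher, against 9.82% and 8.86% of all genes. The median log2 fold change of the members was -0.22, against 0.009 over all genes, and their summed CPM in TRAP1 KO TCM was 0.942 times that in WT TCM. WT TCM is also the treated group of the first comparison, so the pair shares these libraries and their fold changes are not independent.

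Again all 5 IFIT genes fell, with a median of -0.48. Ifit1bl1 had 5.46, 5.51, 5.31 and 5.50 CPM in TRAP1 KO TCM libraries, against 13.9, 14.9 and 12.3 CPM in WT TCM libraries, a log2 fold change of -1.33 (SE 0.09, adjusted p = 6.4e-23, edgeR). Ifit2 was at 303, 289, 295 and 304 CPM in TRAP1 KO TCM, against 407, 399 and 408 CPM in WT TCM (-0.43, SE 0.02). The cluster of these genes on chromosome 19 (chr19:34550694-34650009, GRCm38) holds Ifit2, Ifit3, Ifit1bl1, Ifit3b and Ifit1 within 99.3 kb. In none of the 5 did a knockout library reach the level of a wild-type library. The share of all genes with such a gap was not counted for the TRAP1 comparison, in which 42.2% of genes were called.

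Rsad2 and Cmpk2 neighbour each other within 37.1 kb on chromosome 12 (chr12:26442746-26479837) and changed alike. Rsad2 makes viperin, an enzyme that produces a chain-terminating nucleotide, and had 121, 117, 115 and 119.6 CPM in TRAP1 KO TCM, against 205, 205 and 196 CPM in WT TCM (-0.77, SE 0.03). Cmpk2, a mitochondrial nucleotide kinase, had 94.1, 93.9, 97.2 and 101 CPM in TRAP1 KO TCM, against 154, 163 and 166 CPM in WT TCM (-0.73, SE 0.03). Slfn8, a schlafen gene, had 101, 105, 102 and 104 CPM in TRAP1 KO TCM, against 196, 195 and 191 CPM in WT TCM (-0.91, SE 0.03). For all 3 genes the knockout and wild-type libraries stood clearly apart.

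Members of several other roles fell without TRAP1. The sensor gene Znfx1 was at 449.8, 449, 443 and 452 CPM in TRAP1 KO TCM, against 678, 679 and 682 CPM in WT TCM (-0.59, SE 0.02). Oas3 was at 449.5, 459.5, 453 and 462 CPM in TRAP1 KO TCM, against 651, 631 and 629.6 CPM in WT TCM (-0.48, SE 0.02). Isg15 was at 106, 106, 103 and 108 CPM in TRAP1 KO TCM, against 136, 147 and 141 CPM in WT TCM (-0.41, SE 0.03). These sensor, synthetase and modifier genes had no knockout library within the wild-type range. The ubiquitin ligase gene Trim25, an activator of RIG-I, was at 310.0, 318, 309.8 and 308 CPM in TRAP1 KO TCM, against 382, 392 and 375 CPM in WT TCM (-0.29, SE 0.02). Lgals3bp, a secreted glycoprotein, was at 1536, 1521, 1479 and 1509.9 CPM in TRAP1 KO TCM, against 1749, 1718 and 1713 CPM in WT TCM (-0.18, SE 0.01). Ifi204, a nuclear DNA-binding protein of the HIN-200 family, differed least among the genes with the highest CPM of each role group, at 358 to 369 CPM in TRAP1 KO TCM against 379 to 389 CPM in WT TCM (-0.07, SE 0.02).

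Of the 51 members, 8 rose without TRAP1, with Xaf1 and Ly6e ahead. Xaf1, a promoter of cell death that binds the inhibitor XIAP, had 154, 157, 153 and 162 CPM in TRAP1 KO TCM, against 102, 105 and 105 CPM in WT TCM (0.60, SE 0.03, adjusted p = 9.0e-33, edgeR). Ly6e, a lipid-anchored surface protein that blocks coronavirus entry, had 2409.9, 2474, 2423 and 2364 CPM in TRAP1 KO TCM, against 1687, 1679 and 1651 CPM in WT TCM (0.54, SE 0.01). Both genes stood above every WT naive library too, which reached 134 CPM for Xaf1 and 1779 CPM for Ly6e.

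The other 6 rose by 0.08 to 0.12 on the log2 scale. Ifitm3 had 1524, 1494, 1499.5 and 1499 CPM in TRAP1 KO TCM, against 1391, 1412 and 1373 CPM in WT TCM (0.12, SE 0.01). Bst2 had 1028, 1039.6, 1034 and 1059.7 CPM in TRAP1 KO TCM, against 964, 980.3 and 952 CPM in WT TCM (0.12, SE 0.01). Parp14, a mono-ADP-ribosyltransferase, had 599.5, 628, 611 and 611 CPM in TRAP1 KO TCM, against 590.2, 582 and 572 CPM in WT TCM (0.08, SE 0.02). These genes were higher in every knockout library, though none by 25%. Slfn5 had 558, 542, 534 and 557 CPM in TRAP1 KO TCM, against 506, 535 and 509.7 CPM in WT TCM, where the lowest knockout library lay below the highest wild-type library (0.09, SE 0.02). Eif2ak2 had 169, 163, 171 and 164 CPM in TRAP1 KO TCM, against 158, 162 and 152 CPM in WT TCM (0.09, SE 0.03), and its call was lost without WT TCM replicate 3 (0.07). Herc6, the ligase that attaches ISG15 in mice, had 56.2, 58.0, 58.7 and 63.5 CPM in TRAP1 KO TCM, against 52.9, 55.5 and 56.1 CPM in WT TCM (0.12, SE 0.04). Its lowest knockout library nearly touched the highest wild-type one, and the call was lost without WT TCM replicate 1 (0.09) or TRAP1 KO TCM replicate 4 (0.08).

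The members not called without TRAP1 were Oas2 (-0.03), Samd9l (-0.04), Ddx58 (-0.02), Trim30a (-0.04) and Trim21 (-0.02), at adjusted p of 0.12 to 0.69 (edgeR). Marker sums moved here as well. The 5 monocyte markers summed to 151 to 157 CPM in TRAP1 KO TCM, with none at 0, against 91.4 to 96.4 CPM in WT TCM, and Ccr2, a chemokine receptor of monocytes, made up 147 CPM of it in TRAP1 KO TCM and 91.9 CPM in WT TCM on average. Fibroblast markers summed to 4.71 to 6.95 CPM in TRAP1 KO TCM, with none at 0, against 0.165 to 0.403 CPM in WT TCM. Macrophage markers summed to 24272 to 24522 CPM in TRAP1 KO TCM, against 25511 to 25978 CPM in WT TCM. Their part in these changes was not tested.

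**Figure D3:**
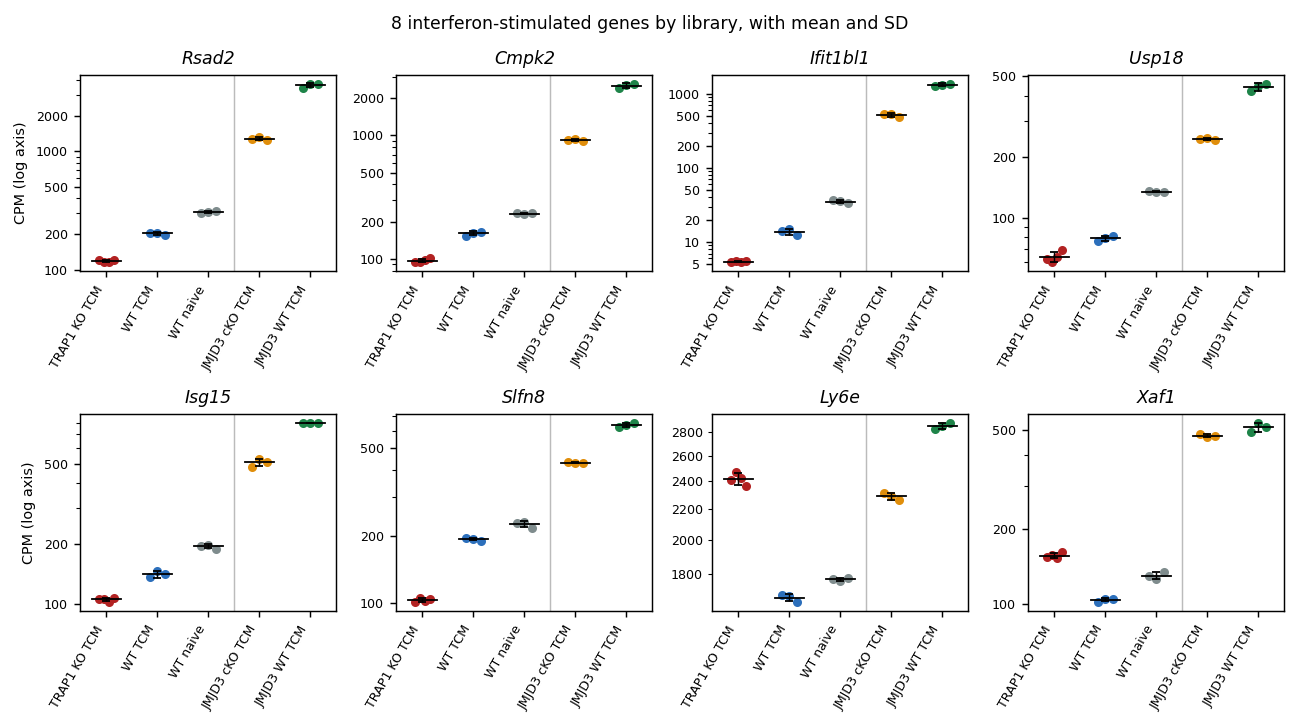
CPM on a log axis (vertical) for 8 genes in every library (points) of the 5 groups (horizontal), with the group mean and SD as bars. Rsad2, Cmpk2, Ifit1bl1, Usp18, Isg15 and Slfn8 are lowest in TRAP1 KO TCM, while Ly6e and Xaf1 are higher there than in WT TCM.

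The third comparison asked how cells labelled as conditional knockouts of the histone demethylase differed under TCM. Kdm6b itself was not called (0.04, adjusted p = 0.75, edgeR), so the knockout is taken from the labels. JMJD3 cKO TCM had all 51 members lower than JMJD3 WT TCM, where 35.1% of 13476 genes were called, 17.8% as lower and 17.3% as higher. With the 25% threshold 33 members were lower and 0 higher, against 7.65% and 7.03% of all genes. The members' median log2 fold change was -0.40, against 0.008 over all genes, and it ran from -1.50 to -0.10. Their summed CPM in JMJD3 cKO TCM was 0.682 times that in JMJD3 WT TCM. In each of the 51 genes the 3 JMJD3 cKO TCM libraries lay below the 3 JMJD3 WT TCM libraries, as they did in 22.7% of all genes tested.

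Rsad2 had 1272, 1309 and 1240.3 CPM in JMJD3 cKO TCM, against 3448, 3679.6 and 3689 CPM in JMJD3 WT TCM, a log2 fold change of -1.50 (SE 0.03, adjusted p = 2.5e-37, edgeR). Its neighbour Cmpk2 had 924, 933 and 896 CPM in JMJD3 cKO TCM, against 2415, 2579 and 2612 CPM in JMJD3 WT TCM (-1.46, SE 0.03). Both genes were lower in the knockout by more than any other member. Ifit1bl1 came next, with 531, 535 and 489 CPM in JMJD3 cKO TCM, against 1268, 1337 and 1377 CPM in JMJD3 WT TCM (-1.35, SE 0.03). Ifit3b had 163, 171 and 160.0 CPM in JMJD3 cKO TCM, against 342, 376 and 356 CPM in JMJD3 WT TCM (-1.12, SE 0.03). Ifit2 had 2197, 2167 and 2058 CPM in JMJD3 cKO TCM, against 4001, 3966 and 4142 CPM in JMJD3 WT TCM (-0.91, SE 0.02). The IFIT group as a whole had a median of -0.91.

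The ISG15 system followed with a median of -0.66. Isg15 had 484, 529 and 509.5 CPM in JMJD3 cKO TCM, against 799, 797 and 797 CPM in JMJD3 WT TCM (-0.65, SE 0.03). Usp18 had 245, 247 and 241 CPM in JMJD3 cKO TCM, against 423, 449 and 457 CPM in JMJD3 WT TCM (-0.85, SE 0.03). Herc6 had 148, 156 and 145 CPM in JMJD3 cKO TCM, against 233, 229.7 and 250.0 CPM in JMJD3 WT TCM (-0.66, SE 0.03). The modifier, its protease and its ligase therefore all fell. The dynamin-like GTPase genes Mx1 (-0.87) and Mx2 (-0.91), the exonuclease gene Isg20 (-0.86) and the OAS-like gene Oasl1 (-0.84) were in the same range. Among nuclear proteins the median was -0.60, with Phf11b (-0.69), Helz2 (-0.64) and Ifi203 (-0.60) ahead.

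Sensors fell less, between -0.51 for Ifih1 and -0.23 for Dhx58. Znfx1 had 1153, 1109 and 1126 CPM in JMJD3 cKO TCM, against 1377, 1479.6 and 1418 CPM in JMJD3 WT TCM (-0.33, SE 0.03). Oas3 had 1288, 1257 and 1235 CPM in JMJD3 cKO TCM, against 1507, 1593 and 1561 CPM in JMJD3 WT TCM (-0.30, SE 0.02). Ly6e had 2314, 2295 and 2262 CPM in JMJD3 cKO TCM, against 2819.9, 2849 and 2879 CPM in JMJD3 WT TCM (-0.31, SE 0.02). Parp14 had 836, 824 and 823 CPM in JMJD3 cKO TCM, against 1049, 1051 and 1069 CPM in JMJD3 WT TCM (-0.35, SE 0.02). These changes were small in size and large against the spread of the libraries. Trim25 had 627, 608 and 614 CPM in JMJD3 cKO TCM, against 806, 827 and 819 CPM in JMJD3 WT TCM (-0.40, SE 0.03). Ifi204 had 949.9, 948 and 934 CPM in JMJD3 cKO TCM, against 1196, 1198 and 1187 CPM in JMJD3 WT TCM (-0.33, SE 0.02). The smallest changes were those of Ifi27l2a (-0.10, adjusted p = 0.0017, edgeR), Xaf1 (-0.11), Lgals3bp (-0.13) and Ifitm3 (-0.15). For Lgals3bp the libraries held 2449, 2411 and 2449 CPM in JMJD3 cKO TCM, against 2608, 2742 and 2685 CPM in JMJD3 WT TCM. Xaf1 held 484, 469.8 and 477 CPM in JMJD3 cKO TCM, against 494, 536 and 518 CPM in JMJD3 WT TCM. Even these members had no overlap between the groups.

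Beside these changes the neutrophil markers summed to 38.9 to 40.6 CPM in JMJD3 cKO TCM, with none at 0, against 21.1 to 25.0 CPM in JMJD3 WT TCM, with Ly6g at 0. Conventional dendritic cell markers summed to 8.13 to 10.5 CPM in JMJD3 cKO TCM and 13.4 to 15.7 CPM in JMJD3 WT TCM, with none of the 7 at 0 in either group, and Xcr1 made up most of the gap, at 3.20 CPM in JMJD3 cKO TCM against 7.86 CPM in JMJD3 WT TCM. The 7 macrophage markers summed to 12421 to 12792 CPM in JMJD3 cKO TCM and 15672 to 16079.7 CPM in JMJD3 WT TCM. Lyz2 made up most of this gap, at 4577 CPM in JMJD3 cKO TCM against 7417 CPM in JMJD3 WT TCM. Fcgr1 (1994 against 2585 CPM), Cd68 (2095 against 2234 CPM) and Mertk (136 against 167 CPM) were lower in JMJD3 cKO TCM as well. Adgre1 (2175 against 1947 CPM), Csf1r (1278 against 1173 CPM) and Itgam (363 against 327 CPM) were higher there. T and NK cell markers summed to 2.84 to 3.48 CPM in JMJD3 cKO TCM, with none at 0, and 1.02 to 1.48 CPM in JMJD3 WT TCM, with Klrb1c at 0. B cell markers summed to 1.09 to 1.85 CPM in JMJD3 cKO TCM and 2.62 to 2.70 CPM in JMJD3 WT TCM, with none at 0. Plasmacytoid dendritic cell markers summed to 112 to 119 CPM in JMJD3 cKO TCM and 130.3 to 139 CPM in JMJD3 WT TCM, with Tcf4 at 109 against 128 CPM. Monocyte markers summed to 187 to 204 CPM in JMJD3 cKO TCM and 212 to 213 CPM in JMJD3 WT TCM. Plac8 made up most of the monocyte gap (14.3 against 29.2 CPM), and Ccr2 was nearly level (169.5 against 170.4 CPM). Their part in the lower interferon genes was not tested.

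The knockouts share no libraries, so their effects can be set against each other. Lower in both were 38 members, against 5.56% of the 13216 genes tested in both. These are 74.5% of the members lower in JMJD3 cKO and 100.0% of those lower without TRAP1, the second share being fixed since all 51 were lower in JMJD3 cKO. With the medium comparison added, which shares WT TCM with the TRAP1 comparison, 32 members were lower in all 3, against 2.78% of these genes. Across the 51 genes the effects correlated with Pearson's r of 0.64 and Spearman's rho of 0.52. This is a description only, since genes measured in the same libraries are not independent observations. The correlation over all genes was not computed. The log2 fold change was lower in JMJD3 cKO than without TRAP1 for 42 members, among them the 8 that rose without TRAP1. For 9 members it was lower without TRAP1. The same count over all genes was not made.

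The difference itself, the TRAP1 effect minus the JMJD3 effect, was called for 45 members (edgeR on all 16 libraries). It was above 0 for 39 and below 0 for 6, against 37.9% of 14545 genes called, 18.4% above 0 and 19.5% below. Since all 51 members fell in JMJD3 cKO, the 8 that rose without TRAP1 were bound to fall there too. Their differences were 0.85 for Ly6e, 0.78 for Herc6, 0.71 for Xaf1, 0.51 for Slfn5, 0.43 for Parp14, 0.39 for Eif2ak2, 0.34 for Bst2 and 0.26 for Ifitm3, each called. The ISRE core is printed above both for Bst2, which rose without TRAP1, and for Rsad2, which fell. Rsad2 (0.72), Cmpk2 (0.73) and Mx2 (0.73) fell in both knockouts with a deeper fall in JMJD3 cKO.

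The 6 members with the deeper fall without TRAP1 were Slfn8 (-0.34), Znfx1 (-0.26), Oasl2 (-0.19), Oas3 (-0.18), Ifi27l2a (-0.16) and Oas1a (-0.11). Slfn8 was the only one whose difference passed the 25% threshold, and its libraries held 433, 429 and 429.5 CPM in JMJD3 cKO TCM, against 624, 639.6 and 652 CPM in JMJD3 WT TCM (-0.56, SE 0.03). Of the 6, 3 belong to the OAS family, in which Oasl1 (0.60), Oas2 (0.39) and Oas1g (0.15) differed the other way. The effects of Ifit1bl1 were -1.33 without TRAP1 and -1.35 in JMJD3 cKO, and their difference was 0.02 (SE 0.10, adjusted p = 0.9, edgeR). Zbp1, Ifi44, Dhx58, Sp100 and Lgals3bp were not called for a difference either.

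**Figure D4:**
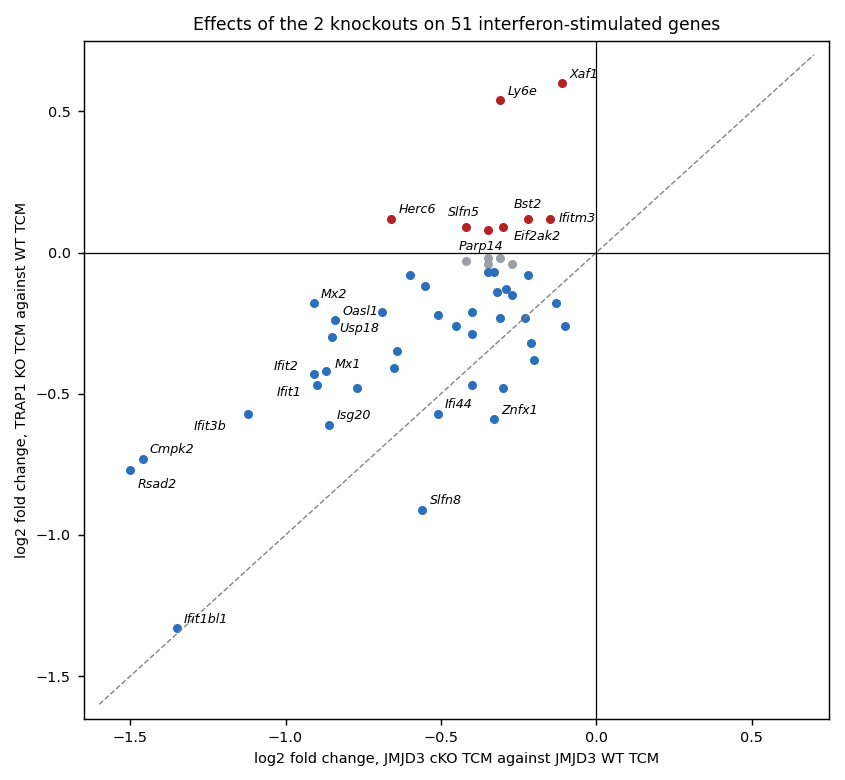
Log2 fold change in TRAP1 KO TCM against WT TCM (vertical) and in JMJD3 cKO TCM against JMJD3 WT TCM (horizontal) for the 51 genes, blue for lower, red for higher and gray for not called without TRAP1, with the line of equal effects dashed. Most points lie above the line, and the 8 red points lie above 0 on the vertical axis and below 0 on the horizontal one.

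Members in 1 gene cluster did not always move alike. Within the Slfn pair on chromosome 11, Slfn8 fell (-0.91) and Slfn5 rose (0.09) without TRAP1, and both fell in JMJD3 cKO (-0.56 and -0.42). Parp14, Dtx3l and Parp9 lie within 139.7 kb on chromosome 16, and without TRAP1 Parp14 rose (0.08) while Parp9 fell (-0.15). Dtx3l was called lower (-0.07), a call lost without TRAP1 KO TCM replicate 3 (-0.04) or WT TCM replicate 2 (-0.04) and with DESeq2. The exons of Dtx3l and Parp9 overlap by 458 bases on opposite strands, and the strand setting of the counting is not known. Transcripts of near-identical genes share sequence as well. Of the stretches of 75 bases in their transcripts, 41.1% of Ifit3 also occurred in Ifit3b, 47.6% of Oas1a in Oas1g and 26.8% of Phf11b in genes such as Phf11c. The values of these genes are uncertain, by an amount that these shares do not give. How the counting handled shared reads is not known. Mx2 is annotated as a polymorphic pseudogene in this build.

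Genes upstream of these targets were read from the same tests. Their counts by list stand against the shares of all genes called, which were 21.2% higher and 21.0% lower without TRAP1, 21.6% higher and 20.6% lower with TCM, and 17.3% higher and 17.8% lower in JMJD3 cKO. Lists this short are described only. Of 18 genes of type I interferons, 16 had 0 counts in all 16 libraries. Ifnb1, the gene of interferon beta, had 8, 8 and 14 counts in JMJD3 cKO TCM libraries, against 41, 40 and 40 counts in JMJD3 WT TCM libraries. This was a mean of 0.493 CPM in JMJD3 cKO TCM and 2.62 CPM in JMJD3 WT TCM, without overlap. Ifnb1 passed the filter on low counts there through its higher level in JMJD3 WT TCM, so no test of it is given. TRAP1 KO TCM libraries held 0 counts together, which allows up to 0.0398 CPM in counting error only, against 2 in WT TCM libraries and 13 in WT naive libraries. Ifnb1 did not pass the filter on low counts in the fit of those groups.

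Of 4 receptor chains none was called lower in the 3 comparisons, and 3 were called higher without TRAP1, 3 with TCM and 1 in JMJD3 cKO. Ifnar1 was called slightly higher in TRAP1 KO TCM against WT TCM (0.05) and in WT TCM against WT naive (0.13), and Ifnar1 and Ifnar2 were not called in JMJD3 cKO TCM against JMJD3 WT TCM (0.03 and 0.02, adjusted p of 0.56 and 0.74, edgeR). Ifngr1, a receptor chain for interferon gamma, had the largest change of this list each time, higher by 0.26, 0.50 and 0.24 without TRAP1, with TCM and in JMJD3 cKO.

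Receptor kinases and ISGF3 genes came next. Stat2, a subunit of ISGF3, had 839 CPM in JMJD3 cKO TCM, against 1144 CPM in JMJD3 WT TCM (-0.44, SE 0.02), and 364 CPM in TRAP1 KO TCM, against 447 CPM in WT TCM (-0.29, SE 0.02). With TCM it was higher by 0.11. Jak2, which serves the receptors of interferon gamma and many cytokines, fell in JMJD3 cKO, with 63.3, 65.8 and 66.9 CPM in JMJD3 cKO TCM, against 97.5, 102 and 106 CPM in JMJD3 WT TCM (-0.64, SE 0.04). Irf9 was called in WT TCM against WT naive alone, at -0.10.

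The factors that switch on interferon genes moved in both directions in the TRAP1 set. Of 7 such genes, 3 rose and 2 fell without TRAP1, 2 rose and 3 fell with TCM, and 4 fell with 0 higher in JMJD3 cKO. Ikbke, a kinase that activates IRF3 and IRF7, had 362, 351, 363 and 356 CPM in TRAP1 KO TCM, 264, 252 and 251 CPM in WT TCM and 176, 176 and 171 CPM in WT naive, with log2 fold changes of 0.49 for the knockout and 0.55 for the medium. It thus changed in the opposite direction to most of the 51 genes. Irf5, an activator of inflammatory genes, fell most in JMJD3 cKO (-0.36). Irf7, the factor that amplifies the interferon response, was lower by 0.34 with TCM, 0.09 without TRAP1 and 0.34 in JMJD3 cKO.

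Among 10 sensors and adaptors upstream of interferon, 5 fell and 1 rose without TRAP1, 1 fell and 5 rose with TCM, and 6 fell with 0 higher in JMJD3 cKO. Tlr9, the receptor for microbial DNA, averaged 48.1 ± 3.25 CPM in TRAP1 KO TCM (SD, n = 4), against 77.8 ± 0.595 CPM in WT TCM (SD, n = 3), a log2 fold change of -0.69 (SE 0.04). It had 174, 168 and 166 CPM in JMJD3 cKO TCM, against 265, 279.6 and 282 CPM in JMJD3 WT TCM (-0.70, SE 0.03). No library of either knockout reached its wild-type range. Tmem173, the gene of the adaptor STING, had the largest change of the list with TCM (0.43).

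Of 8 brakes on the pathway, 4 rose and 1 fell without TRAP1, 4 rose and 1 fell with TCM, and 1 rose and 5 fell in JMJD3 cKO. Socs1, which blocks JAK kinases and is itself induced by interferon, had 3.69, 2.47, 2.68 and 3.13 CPM in TRAP1 KO TCM, against 3.63, 4.74 and 6.71 CPM in WT TCM, where the groups overlapped (-0.72, SE 0.17). It had 12.8, 10.7 and 11.3 CPM in JMJD3 cKO TCM, against 20.7, 26.2 and 23.7 CPM in JMJD3 WT TCM (-1.02, SE 0.09). Socs1 was thus lower in both knockouts. Socs3, which is induced mainly by cytokines that signal through STAT3, had 18.1, 18.8, 19.6 and 17.0 CPM in TRAP1 KO TCM, 11.8, 11.9 and 10.4 CPM in WT TCM and 1.61, 2.54 and 2.31 CPM in WT naive, higher by 0.70 without TRAP1 and by 2.40 with TCM. It had 19.4, 16.2 and 16.5 CPM in JMJD3 cKO TCM, against 34.0, 33.8 and 33.2 CPM in JMJD3 WT TCM (-0.95, SE 0.07). Socs3 was therefore higher without TRAP1 and lower in JMJD3 cKO, each without overlap between the groups, and the difference between the knockout effects was 1.65 (SE 0.12, adjusted p = 1.5e-22, edgeR).

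**Figure D5:**
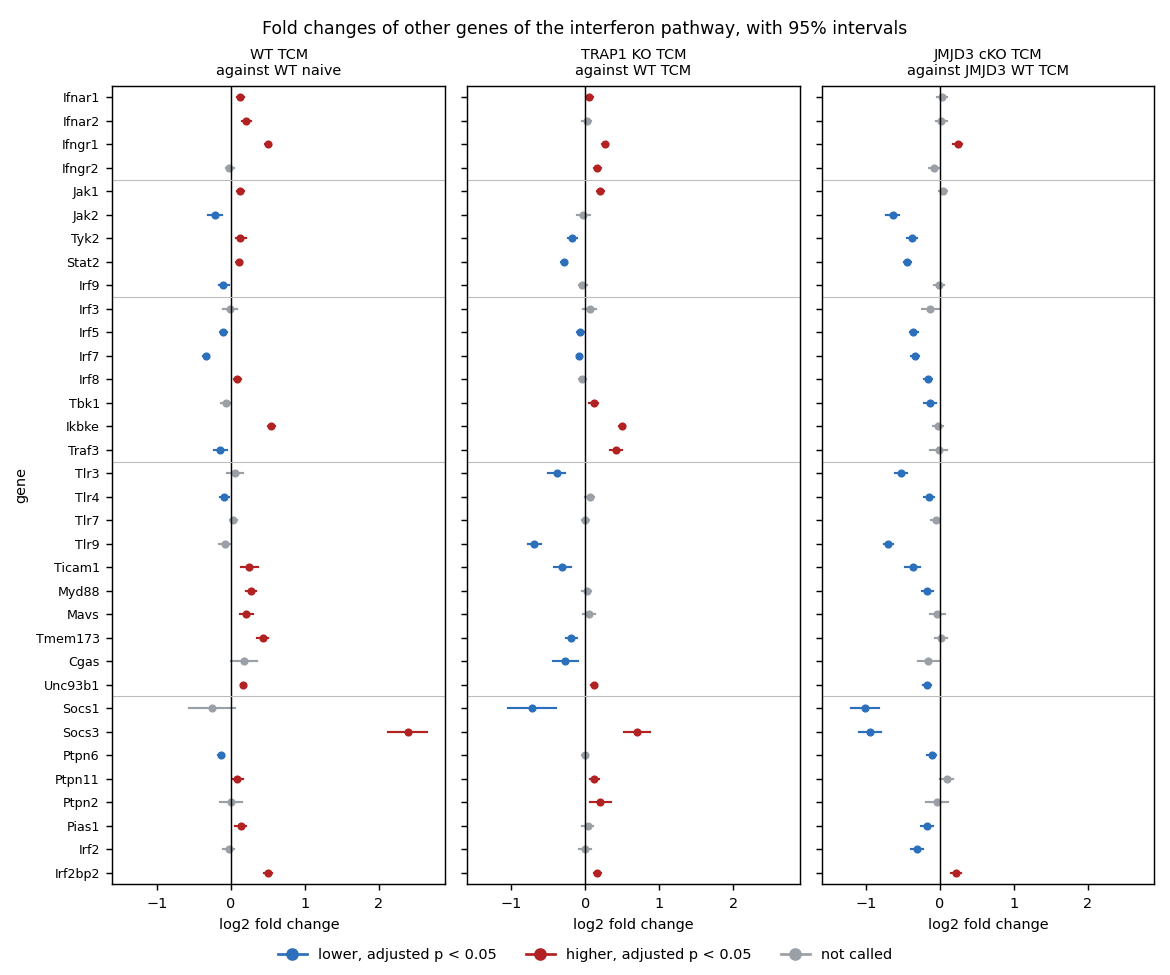
Log2 fold change with its 95% interval (horizontal) for tested genes of the interferon pathway outside the 51 (vertical, grouped as receptors, kinases and ISGF3, factors, sensors and adaptors, brakes) in the 3 comparisons, colored as lower, higher or not called. Tlr9 and Socs1 are lower in both knockouts, and Socs3 is higher with TCM and without TRAP1 and lower in JMJD3 cKO.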

How the data were processed

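Total RNA of the 16 macrophage libraries was depleted of ribosomal RNA and made into TruSeq Stranded libraries for Illumina HiSeq, per the labels' protocols. The treatment protocol also names other stimuli, including LPS with interferon gamma, which none of the 16 labels carries. The authors deposited 1 table of whole-number counts per library, used as raw counts. Bowtie2, HISAT, RSEM, StringTie and the build mm10 appear, without version or role, per the submitters' processing notes. No source used here states the counter, annotation release or strand setting. Symbols came from GENCODE M21 (GRCm38), which held 54495 of 54532 identifiers.

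Counts were tested with edgeR (4.0.16, R 4.3.3) by its robust quasi-likelihood test after TMM scaling and filterByExpr (minimum of 10 counts). Adjustment was by Benjamini-Hochberg over all genes tested, and an adjusted p under 0.05 was a call. The medium and TRAP1 comparisons came from 1 fit of 10 libraries, the JMJD3 comparison from a fit of 6 and the difference from a fit of 16. CPM uses TMM-scaled totals over 16 libraries. No library pair agreed within sampling noise (chi-square per degree of freedom 1.74 to 2.72). Alternatives were DESeq2 (1.42.0), other scalings and filters, a replicate block and leaving out each library.

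The 51 members, the other lists and the tests were chosen with earlier results of these data known. Every member could be named. Library values were given for the 4 called members that changed most in either direction and averaged at least 5 CPM, as well as for the member with the highest CPM of each role group. Of the other pathway genes, the 1 with the largest change of its list was named. Ifnar1, Ifnar2, Irf7, Irf9 and the rest of those described were added after their values were seen. A result for the receptor kinases and ISGF3 is not reported here, nor are the counts of that list.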

Additional observations from a re-analysis of the deposited data

Results flagged for a closer look

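The effects of the knockouts differed beyond their error for most members, tested as the TRAP1 effect minus the JMJD3 effect with edgeR. The difference was called above 0 for 39 members and below 0 for 6, against 18.4% and 19.5% of all 14545 genes tested. In 8 members the effects had opposite directions, higher in TRAP1 KO TCM than in WT TCM and lower in JMJD3 cKO TCM than in JMJD3 WT TCM. The JMJD3 direction was fixed, since all 51 members were lower there, and 21.2% of all genes were called higher without TRAP1. The share of all genes with both directions was not counted. On the log2 scale the difference was 0.85 for Ly6e, 0.78 for Herc6, 0.71 for Xaf1, 0.51 for Slfn5, 0.43 for Parp14, 0.39 for Eif2ak2, 0.34 for Bst2 and 0.26 for Ifitm3. The sets also differ in line and sex, which cannot be told apart from the genotype effects being compared.

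One library stood far from the others of its group. Dtx3l had 169.7 CPM in TRAP1 KO TCM replicate 3, against 182 to 183 CPM in the other 3 libraries of that group. Of 51 members examined in that group this was the 1 so marked, and chance marks about 1 in 20. Dtx3l was called lower without TRAP1 (-0.07), a call lost without that library (-0.04).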

How the results depend on the processing

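No result reversed under any alternative. With each library left out in turn, members called ran from 44 to 46 without TRAP1 (7 to 8 higher, 36 to 38 lower), 43 to 45 with TCM (4 to 5 higher, 39 to 40 lower), stayed at 51 lower and 0 higher in JMJD3 cKO, and ran from 44 to 48 for the difference (38 to 40 above 0, 6 to 8 below). No sign was seen that replicate numbers pair the libraries (correlations of same-numbered deviations -0.107 to 0.0274). Such a check cannot tell a small shared effect from none. With a replicate block 45 members were called without TRAP1, 45 with TCM, 51 in JMJD3 cKO and 45 for the difference, and the call of Herc6 without TRAP1 was lost (0.08). Requiring a 25% difference left 19 without TRAP1 (2 higher, 17 lower), 18 with TCM (0 higher, 18 lower) and 33 in JMJD3 cKO. Members higher with TCM were 3 with upper-quartile scaling and 3 with no count filter, against 5, since Ifitm3 and Helz2 lost their calls. On unscaled totals the summed CPM averaged 16209 in TRAP1 KO TCM, 16991 in WT TCM, 20006 in WT naive, 31957 in JMJD3 cKO TCM and 44184 in JMJD3 WT TCM. With the longer ISRE core 9 promoters matched in place of 15. DESeq2 lost Sp100 with TCM, and Herc6 and Dtx3l without TRAP1. Depth limits Ifnb1, with at most 41 counts in a library, and no test of it is given.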
